A study of Homo sapiens with 4 samples.

Results

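Interferon-stimulated genes are the antiviral and signalling genes whose transcription follows the binding of an interferon to its receptor. The 49 names chosen for this group stand for 48 genes, since DDX58 is an older name of RIGI. Of these 48 genes, 47 had a probe set with 1 gene symbol and 46 passed the filter on dim probe sets, out of 18323 genes with a probe set and 15194 that passed. STAT2, a component of the transcription factor activated by type I interferon, is not analysed here. HERC5, the main ligase that attaches ISG15 to proteins, was below the filter, at 0.68 on HK1 DMSO, 0.49 on HK1 CAPE, 0.79 on HK1EBV DMSO and 0.71 on HK1EBV CAPE. For each gene the brightest probe set was read, and the main comparison set HK1EBV against HK1 within each treatment.

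RNA came from HK1 and HK1EBV, 2 lines derived from human nasopharyngeal carcinoma, a squamous tumour of the upper throat. Each was kept for 24 h either with 0.1% DMSO, the solvent control, or with caffeic acid phenethyl ester (CAPE), a phenolic compound of propolis, at 110 µM. The name HK1EBV was read as HK1 cells that carry Epstein-Barr virus, about which the labels give no further detail, such as the viral strain or whether the line is 1 clone. Each of the 4 groups had 1 array, so no difference within a treatment or within a line had a replicate check. The labels do not say whether the arrays came from separate cultures. The residual behind the p-values and SE below holds the interaction of line and treatment together with array noise. It was moderated with a variance shared over all genes. The 2 treatments, or the 2 lines, thus stand in for replicates, and spread between cultures was not measured. The number of arrays limits the precision.

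Type I and type III interferons signal through paired receptor chains to the kinases JAK1 and TYK2, which phosphorylate STAT proteins. The phosphorylated STAT proteins join IRF9 and bind the interferon-stimulated response element, a short sequence found near the start of many of these genes. Epithelial cells also switch on part of the set without added interferon when RIG-I-like receptors detect viral RNA, and USP18 and SOCS proteins limit the response.

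The response element is shown first, as a description of the genes. It is known near the start of many interferon-stimulated genes, so its frequency in a list of them is no independent support. Promoter windows of 250 bases before to 50 bases after the annotated start were taken from RefSeq (GRCh38.p14), and 38 of the 48 genes had one. The core of the element, GAAA followed after any 2 bases by another GAAA, was searched on both strands, overlapping matches included. It occurred in 25 of the 38 windows, or 65.8%, against 3.65% of all 27305 promoter windows of the same length. The longer form, the core followed by CT, every match of which is also a match of the core, occurred in 16 of the 38, or 42.1%, against 0.271% of all windows. The core of the gamma-activated site, TTCNNNGAA, the element bound by STAT dimers, occurred in 12, or 31.6%, against 7.94%. The 43 core matches had their first base between positions -164 and 12, counted from the start.

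The 250 bases before the start are given for 3 genes whose RNA was higher in HK1EBV, with every match of the core in capitals, 5′ to 3′ on the strand of the gene.
IFI44L, chr1:78620198-78620447, plus strand: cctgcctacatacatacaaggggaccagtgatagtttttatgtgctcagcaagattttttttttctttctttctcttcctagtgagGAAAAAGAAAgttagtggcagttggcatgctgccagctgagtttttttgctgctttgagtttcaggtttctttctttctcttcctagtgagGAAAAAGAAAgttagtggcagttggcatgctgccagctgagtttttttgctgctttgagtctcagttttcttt
IFI6, chr1:27672193-27672442, minus strand: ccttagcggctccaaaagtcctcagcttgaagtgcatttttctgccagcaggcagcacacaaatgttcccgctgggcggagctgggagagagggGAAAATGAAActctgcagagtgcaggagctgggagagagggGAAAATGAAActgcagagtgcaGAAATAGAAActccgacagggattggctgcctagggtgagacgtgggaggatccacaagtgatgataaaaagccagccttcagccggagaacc
IFIT1, chr10:89392373-89392622, plus strand: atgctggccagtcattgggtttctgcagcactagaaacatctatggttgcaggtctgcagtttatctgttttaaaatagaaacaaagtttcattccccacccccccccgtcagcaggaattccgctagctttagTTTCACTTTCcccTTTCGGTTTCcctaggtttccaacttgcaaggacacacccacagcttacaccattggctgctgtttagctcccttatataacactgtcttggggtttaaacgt

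In IFI44L the matches began at positions -164 and -73 from the start, each in a copy of the same stretch. Those of IFI6 began at -156, -115 and -93. IFIT1 carried them on the opposite strand, at -116 and -103.

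Shorter windows are given for 3 other genes higher in HK1EBV and then for 4 whose line difference was small, to set the same element side by side. Capitals mark 1 core match in each.
DDX60, chr4:168318781-168318820, minus strand: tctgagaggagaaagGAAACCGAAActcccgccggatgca
IFIT3, chr10:89327860-89327899, plus strand: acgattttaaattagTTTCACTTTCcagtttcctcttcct
PLSCR1, chr3:146544662-146544701, minus strand: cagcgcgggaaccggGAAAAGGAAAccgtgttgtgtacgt
IFITM3, chr11:320871-320910, minus strand: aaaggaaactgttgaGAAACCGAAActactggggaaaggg
IFI27, chr14:94110626-94110665, plus strand: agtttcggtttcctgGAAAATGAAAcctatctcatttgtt
IFIT5, chr10:89414508-89414547, plus strand: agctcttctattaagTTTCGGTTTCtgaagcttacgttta
EPSTI1, chr13:42992267-42992306, minus strand: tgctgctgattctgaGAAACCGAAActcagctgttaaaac

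DDX60 and EPSTI1 carried the same 10 letters, and so did IFITM3. The core was in 6 of the 8 windows of genes at least 2-fold higher in HK1EBV in either treatment (11 members in all, beside 1.44% of all genes tested), and in 19 of the 30 windows of the other genes. OAS1 and IRF9 were the 2 of those 8 without a match. The search took only GAAA runs with exactly 2 bases between them. The OAS1 window holds GAAA runs set closer than that, so a window without a match may still hold a close variant. A match is a run of letters in these windows and says nothing of binding in these cells.

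**Figure D1:**
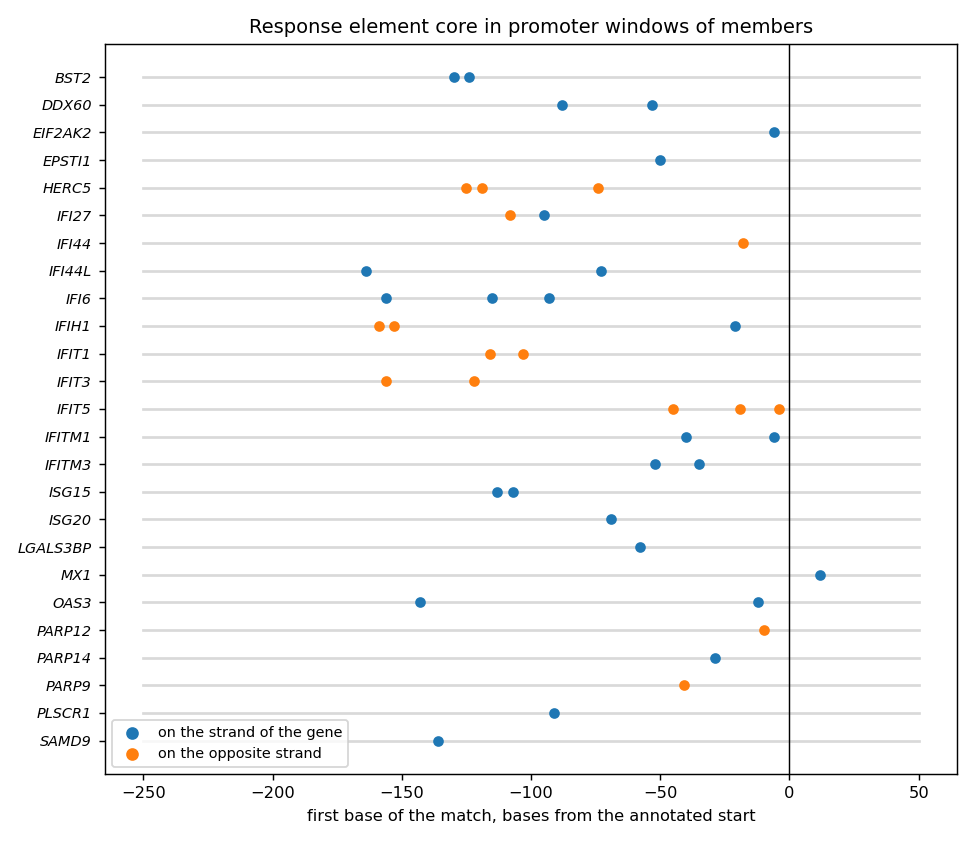
Positions of the response element core in the 25 promoter windows that held it, by first base of the match relative to the annotated start (x axis, bases; negative before the start). Each grey line is 1 window, blue points are matches on the strand of the gene and orange points on the opposite strand; 42 of the 43 matches began within the 200 bases before the start.

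The next question was how these genes differed between HK1EBV and HK1. The group as a whole was higher in HK1EBV in both treatments, with a median difference of 0.38 log2 units in DMSO and 0.28 in CAPE, where the medians of all 15194 genes were 0.01 and -0.00. The members were chosen with earlier results of these data known. That choice may have shaped the values and counts below, which are no independent support. A difference above 0 was found for 35 of the 46 genes in DMSO, beside 52.2% of all genes, and for 34 in CAPE, beside 47.9%. In DMSO, 8 of the 46 genes were at least 2-fold higher in HK1EBV, or 17.4%, beside 0.895% of all genes. In CAPE 11 were, or 23.9%, beside 0.928%. None (0) of the 46 was at least 2-fold lower in either treatment, which 0.974% of all genes were in DMSO and 1.13% in CAPE. The 8 genes of the DMSO arrays were IFI6, SLFN13, DDX60, USP18, OAS1, IFIT1, IFI44L and OASL, and each was also at least 2-fold higher on the separate pair of CAPE arrays, as 0.382% of all genes were in both.

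Both HK1EBV arrays lay above both HK1 arrays for 25 of the 46 genes, beside 21.4% of all genes, and below them for 2, IFITM3 and SP100, beside 20.9%. The spread within the group was wide. A difference of at least 0.5 in both treatments was found for 17 genes, beside 3.17% of all genes, and of at least that size in the other direction for 0, beside 2.99%. It was under 0.25 in size in both treatments for 15 genes, beside 44.2%.

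The values were tested in 1 model of all 4 arrays, with line and treatment as terms (limma with Benjamini-Hochberg adjustment over the 15194 genes). Of the 46 genes, 8 passed as higher in HK1EBV, beside 1.32% of all genes, and 0 as lower, beside 1.58%. At an unadjusted p under 0.05 there were 22 higher and 1 lower, beside 12.4% and 10.6%. The model had 1 residual degree of freedom, and the counts moved with its setting. With dim probe sets kept in, or with treatment left out of the model, 0 passed, whereas 21 passed as higher, beside 6.26% of all genes, and 0 as lower, beside 5.34%, when 57 genes with a residual of exactly 0 were left out, a choice made after seeing the data. In bulk RNA a change in the share of cells that express a gene and a change in RNA per cell cannot be told apart.

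**Figure D2:**
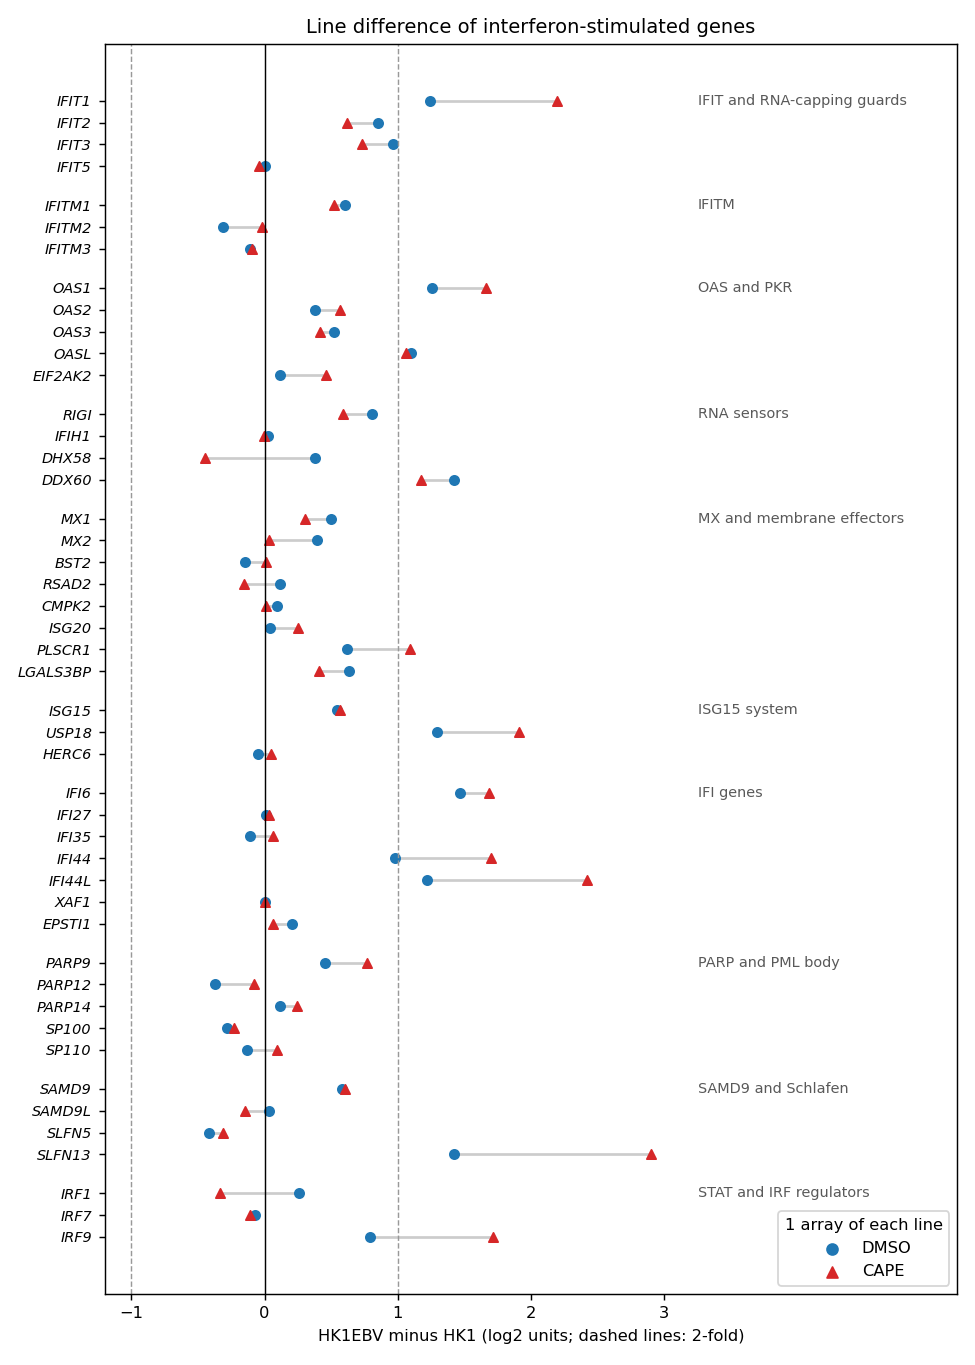
Difference between the lines for the 46 genes that passed the filter, ordered by role (y axis), as HK1EBV minus HK1 in log2 units (x axis). Blue circles compare the 2 DMSO arrays and red triangles the 2 CAPE arrays, with no replicate and so no error bar; dashed lines mark 2-fold, which 8 circles and 11 triangles pass on the right and 0 on the left.

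**Figure D3:**
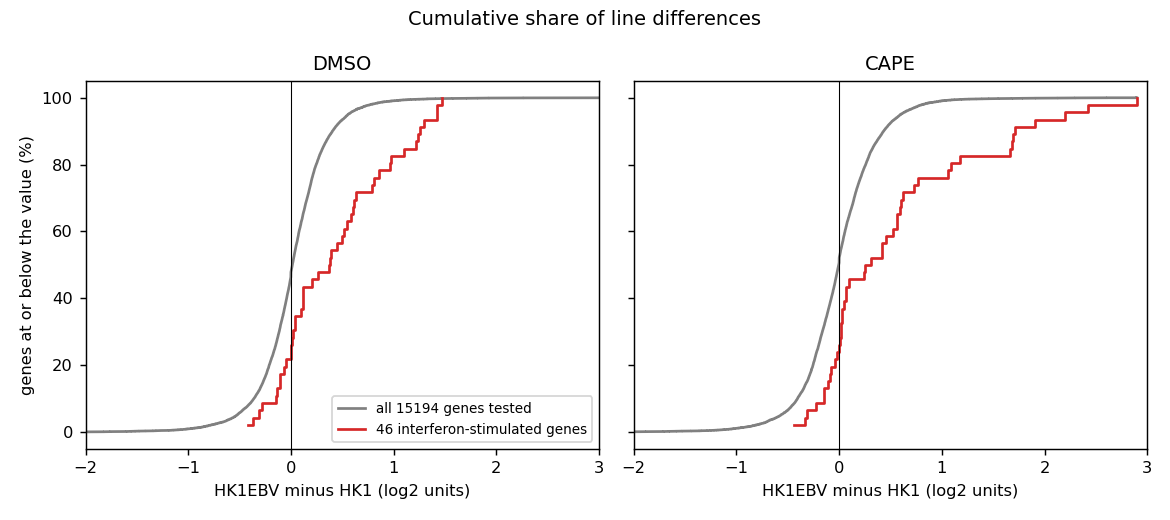
Cumulative percentage of genes (y axis) at or below a given difference of HK1EBV minus HK1 in log2 units (x axis), in DMSO and in CAPE, for all 15194 genes (grey) and the 46 interferon-stimulated genes (red). The red curve runs to the right of the grey one over its upper part, and its medians are 0.38 and 0.28 against 0.01 and -0.00.

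Of the transcriptional regulators, IRF9, the DNA-binding subunit of the factor formed with STAT proteins, stood at 3.30 on HK1 DMSO, 3.57 on HK1 CAPE, 4.10 on HK1EBV DMSO and 5.29 on HK1EBV CAPE. Both HK1EBV values were above both HK1 values, by 0.79 in DMSO and 1.71 in CAPE, and the mean difference was 1.25 ± 0.23 (moderated SE of limma, n = 2 treatments, adjusted p = 0.0665). IRF1, a regulator that also responds to interferon-γ, stood at 2.86, 3.22, 3.12 and 2.89 on the same 4 arrays, and its groups overlapped. IRF7, the factor that amplifies interferon-α genes, stood at 3.22, 3.66, 3.15 and 3.55 and overlapped as well. Of the 3 regulators measured, IRF9 was the 1 whose lines did not overlap. Of all genes 21.4% had both HK1EBV arrays above both HK1 arrays and 20.9% below, so nothing is read from 1 of 3.

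The cytosolic RNA sensors were uneven. RIGI, which detects RNA with a 5′ triphosphate, stood at 2.91 and 3.54 in HK1 and at 3.71 and 4.13 in HK1EBV, DMSO first here and in the pairs below. Its difference was 0.81 in DMSO and 0.59 in CAPE (limma adjusted p = 0.0593). IFIH1, the sensor of long double-stranded RNA known as MDA5, lay between 1.52 and 1.59 on the 4 arrays. DHX58, the regulatory helicase LGP2, differed by 0.38 in DMSO and by -0.44 in CAPE. IFIH1 and DHX58 lay under the array medians of all probe sets, 2.23 to 2.27, and dim probe sets may miss a difference. DDX60, a helicase linked to RIG-I signalling, stood at 0.99 and 0.82 in HK1 and at 2.41 and 2.0 in HK1EBV. Its HK1 values were under the filter of 0.997, and so were the HK1 values of IFITM1. Both genes were tested through their HK1EBV arrays alone, so their differences and DDX60's call are no support. Without these 2 genes, 7 of 44 members were at least 2-fold higher in HK1EBV in DMSO, 10 in CAPE, and 7 passed limma's test. The shares of all genes were 0.895%, 0.928% and 1.32%, from which no such genes were left out. Both genes remain in the counts given for the 46 genes.

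The IFIT proteins, which bind viral RNA that lacks the methylated cap of the host, are encoded side by side on chromosome 10. IFIT1 stood at 3.97 and 3.45 in HK1 and at 5.21 and 5.65 in HK1EBV, a difference of 2.37-fold in DMSO and 4.58-fold in CAPE (mean 1.72 ± 0.24 log2 units, moderated SE, n = 2, limma adjusted p = 0.0465). IFIT3 stood at 2.31 and 2.44 in HK1 and at 3.27 and 3.17 in HK1EBV (mean 0.85 ± 0.12, limma adjusted p = 0.0479). IFIT2 was higher by 0.86 and 0.62 and did not pass (limma adjusted p = 0.0547). IFIT5, in the same cluster, stood at 3.02 and 2.87 in HK1 and at 3.02 and 2.82 in HK1EBV. Around the cluster, the 10 nearest tested genes on no interferon list used here had median line differences of -0.20 in DMSO and -0.06 in CAPE. The highest of them was 0.18 and 0.22. Those lists do not hold every gene that interferon induces, so a neighbour here or below may be one. In both treatments 3 of the 4 IFIT genes were above all 10 of these neighbours, and a cause was not tested.

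The OAS enzymes make the second messenger that activates RNase L. OAS1 stood at 2.81 and 3.52 in HK1 and at 4.07 and 5.19 in HK1EBV, with a mean difference of 1.46 ± 0.14 (moderated SE, n = 2, limma adjusted p = 0.0311). OASL, a relative without that enzyme activity that enhances RIG-I signalling, stood at 1.99 and 2.18 in HK1 and at 3.09 and 3.24 in HK1EBV (mean 1.08 ± 0.11, limma adjusted p = 0.0332). OAS2 and OAS3, next to OAS1 on chromosome 12, differed by 0.38 and 0.52 in DMSO and by 0.56 and 0.41 in CAPE, without passing (limma adjusted p = 0.106 and 0.0996). EIF2AK2, the kinase PKR that halts translation when it binds double-stranded RNA, differed by 0.12 and 0.46. All 5 genes of this role were higher in HK1EBV in both treatments. Of all genes 52.2% were above 0 in DMSO and 47.9% in CAPE, and the share above 0 in both was not counted. Of the 5 genes 2 passed, beside 1.32% of all genes.

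In the ISG15 system, USP18 removes ISG15 from proteins and blocks the type I interferon receptor. It stood at 2.42 and 2.37 in HK1 and at 3.71 and 4.28 in HK1EBV, 2.45-fold higher in DMSO and 3.75-fold in CAPE (mean 1.60 ± 0.18, moderated SE, n = 2, limma adjusted p = 0.0363). A second probe set, listed for USP18 together with its copy USP41P and not used in the counts, differed by 1.62 and 1.73. The value of USP18 is uncertain to the extent that RNA of that copy binds its probes. ISG15, the ubiquitin-like modifier itself, stood at 3.52 and 3.52 in HK1 and at 4.06 and 4.09 in HK1EBV (mean 0.55 ± 0.11, limma adjusted p = 0.0719). HERC6, a relative of the ISG15 ligase, lay between 1.82 and 1.91.

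Of the genes known mainly by their induction, IFI6, a mitochondrial and endoplasmic reticulum protein that inhibits flaviviruses, stood at 5.50 and 5.80 in HK1 and at 6.97 and 7.48 in HK1EBV. Its mean difference of 1.58 ± 0.12 (moderated SE, n = 2) had the lowest adjusted p of the group (limma adjusted p = 0.0222). IFI44 and IFI44L lie next to each other on chromosome 1. IFI44 stood at 3.31 and 3.11 in HK1 and at 4.29 and 4.81 in HK1EBV (mean 1.34 ± 0.20, limma adjusted p = 0.0482). IFI44L stood at 3.14 and 2.98 in HK1 and at 4.35 and 5.40 in HK1EBV, 2.32-fold higher in DMSO and 5.36-fold in CAPE. Its differences were unlike, and it did not pass (mean 1.82 ± 0.29, limma adjusted p = 0.0531).

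Other genes of this kind hardly differed, though dim probe sets such as those of XAF1 and EPSTI1 may miss a difference. IFI27, a marker often used for the interferon response in blood, lay between 2.54 and 2.60, XAF1, a pro-apoptotic protein, between 1.43 and 1.46, and IFI35 differed by -0.11 and 0.06. EPSTI1 lies on chromosome 13, whose 253 tested genes had median line differences of -0.37 in DMSO and -0.29 in CAPE. EPSTI1 itself differed by 0.20 and 0.06, against a median of -0.53 and -0.39 in its 10 nearest tested genes outside the interferon lists. No other member (0) lay on chromosome 13 and none on chromosome 18.

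The Schlafen genes, a cluster on chromosome 17 whose proteins act on tRNA, differed in direction. SLFN13, an RNase that cleaves tRNA and rRNA, stood at 1.90 and 1.34 in HK1 and at 3.32 and 4.24 in HK1EBV. It was 2.67-fold higher in HK1EBV in DMSO and 7.46-fold in CAPE, where it ranked 1 of all 15194 genes. Its differences were unlike, and it did not pass (mean 2.16 ± 0.35, moderated SE, n = 2, limma adjusted p = 0.0539). SLFN5 differed by -0.42 and -0.31 (limma adjusted p = 0.154). Of the pathway list, SLFN11, which cleaves tRNA and blocks replication under stress, lies in the same cluster and differed by 0.14 in DMSO and 0.87 in CAPE (limma adjusted p = 0.220). SLFN12 differed by -0.26 and -0.24 (limma adjusted p = 0.264). The 10 nearest tested genes on no interferon list used here had medians of 0.00 and 0.06. The highest of them was 0.27 in DMSO and 0.99 in CAPE. SAMD9, a poxvirus restriction factor, differed by 0.58 and 0.61 (limma adjusted p = 0.0649), and its neighbour and paralog SAMD9L by 0.04 and -0.15.

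Among effectors at membranes, PLSCR1, a scramblase that also blocks viral entry, stood at 5.07 and 4.93 in HK1 and at 5.69 and 6.03 in HK1EBV. Its mean difference was 0.85 ± 0.15 (moderated SE, n = 2, limma adjusted p = 0.0630). LGALS3BP, a secreted glycoprotein, differed by 0.63 and 0.41. MX1, a dynamin-like GTPase against RNA viruses, differed by 0.50 and 0.31, and MX2, its paralog against retroviruses, by 0.40 and 0.03. BST2, which tethers virions, differed by -0.15 and 0.01. RSAD2, the enzyme viperin that makes a chain-terminating nucleotide, and CMPK2, its neighbour, differed by 0.12 and 0.10 in DMSO and by -0.15 and 0.01 in CAPE. ISG20, a 3′ exonuclease, differed by 0.04 and 0.25. BST2 at 0.99 to 1.19 and RSAD2 at 0.89 to 1.16 lay close to the filter. MX1, MX2, HERC6 and SAMD9L were also dim, under the array medians of 2.23 to 2.27 on all 4 arrays, and may miss a difference.

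IFITM3, which blocks fusion of viruses in endosomes, stood at 6.12 and 6.06 in HK1 and at 6.01 and 5.97 in HK1EBV. IFITM2 differed by -0.31 and -0.02 and IFITM1 by 0.61 and 0.52 (limma adjusted p = 0.0719 for IFITM1). The 3 are close paralogs, so the share of each in its probe set is uncertain. Of the PARP and PML body genes, PARP9 differed by 0.45 and 0.77 (limma adjusted p = 0.0825), PARP14 by 0.11 and 0.24 and PARP12 by -0.37 and -0.08. SP100, a component of PML bodies, differed by -0.29 and -0.23, and SP110 by -0.13 and 0.09.

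The counts were also split by the level of the probe set. Of 33 members with a mean reaching the median of all values, 7 were at least 2-fold higher in DMSO and 10 in CAPE. Among all 10751 genes of that range 118 and 121 were. The 33 had medians of 0.52 and 0.56, against 0.02 and 0.00. Of the 13 dimmer members 1 was in each treatment, beside 18 and 20 of the 4443 dimmer genes. It was DDX60, which is no support, as said above. The 13 had medians of 0.12 and 0.01, against 0.00 and -0.02. The mean includes the HK1EBV arrays, so the split is partly set by the line difference. SLFN13, at 1.90 and 1.34 in HK1, and OASL, at 1.99 and 2.18, reached the median through their HK1EBV arrays. Nothing is read from the contrast of the 2 ranges. Around the 11 members at least 2-fold higher, the median difference of the 10 nearest tested genes outside the interferon lists ran from -0.20 to 0.26 in DMSO and from -0.14 to 0.20 in CAPE. Single neighbours differed more. The highest of the 10 reached 0.96 in DMSO around USP18 and 1.03 in CAPE around IFI44 and IFI44L. Around PLSCR1 it reached 0.90 and 1.01, where PLSCR1 itself differed by 0.62 and 1.09.

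CAPE was compared with DMSO next, within each line. In HK1, none (0) of the 46 genes was at least 2-fold higher, beside 0.671% of all genes, or lower, beside 0.684%. In HK1EBV, 3 were at least 2-fold higher, IRF9, OAS1 and IFI44L, beside 0.691% of all genes, and 0 lower, beside 0.533%. The median changes were 0.04 in HK1 and 0.10 in HK1EBV, beside 0.02 and -0.00 over all genes, and 27 members were above 0 in HK1, beside 53.1% of all genes, and 30 in HK1EBV, beside 48.2%. In the test over both lines 0 of the 46 genes passed in either direction (limma with Benjamini-Hochberg adjustment), beside 0% higher and 0.00658% lower of all genes, and at an unadjusted p under 0.05 there were 9 higher and 2 lower, beside 10.2% and 9.31%. Without the genes of zero residual 5 rose, OAS1, RIGI, IFI35, SLFN5 and IRF9, and SAMD9 fell, beside 4.07% and 4.14% of all genes.

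OAS1 was higher with CAPE by 0.71 in HK1 and 1.12 in HK1EBV (mean 0.92 ± 0.14, moderated SE, n = 2 lines, limma adjusted p = 0.0838). SLFN5 was higher by 0.64 and 0.75, RIGI by 0.64 and 0.42 and IFI35 by 0.49 and 0.67. SAMD9 differed by -0.77 and -0.75, and IFIT2 by -0.36 and -0.60. IRF7 was higher by 0.44 and 0.40. These 7 genes were named with their values known, so nothing is read from their same sign in both lines. None of the 7 passed with the planned setting. Other members had opposite signs, such as IFIT1 at -0.52 in HK1 and 0.44 in HK1EBV.

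The line difference was wider in CAPE for part of the group. For 2 members, SLFN13 and IFI44L, it was at least 2-fold larger in CAPE than in DMSO, beside 0.342% of all genes, by 1.48 and 1.20 log2 units, and for 0 it was at least 2-fold smaller, beside 0.428%. At 0.5 units or more there were 6, with IFIT1 at 0.95, IRF9 at 0.92, IFI44 at 0.72 and USP18 at 0.61 as the others, beside 4.48% of all genes. The difference was lower in CAPE by at least that much for 2, DHX58 at -0.82 and IRF1 at -0.59, beside 5.69%. These values each rest on 4 single arrays and were not tested. Of the 11 members at least 2-fold higher in HK1EBV, which were picked in part on the CAPE arrays, 10 were higher with CAPE than with DMSO in HK1EBV and 4 in HK1. The same held for 20 and 23 of the other 35 members. PLSCR1, IFI44 and IRF9 were among the 11 through the CAPE arrays alone, so the higher HK1EBV value with CAPE is partly set by the choice, and nothing is read from these counts.

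**Figure D4:**
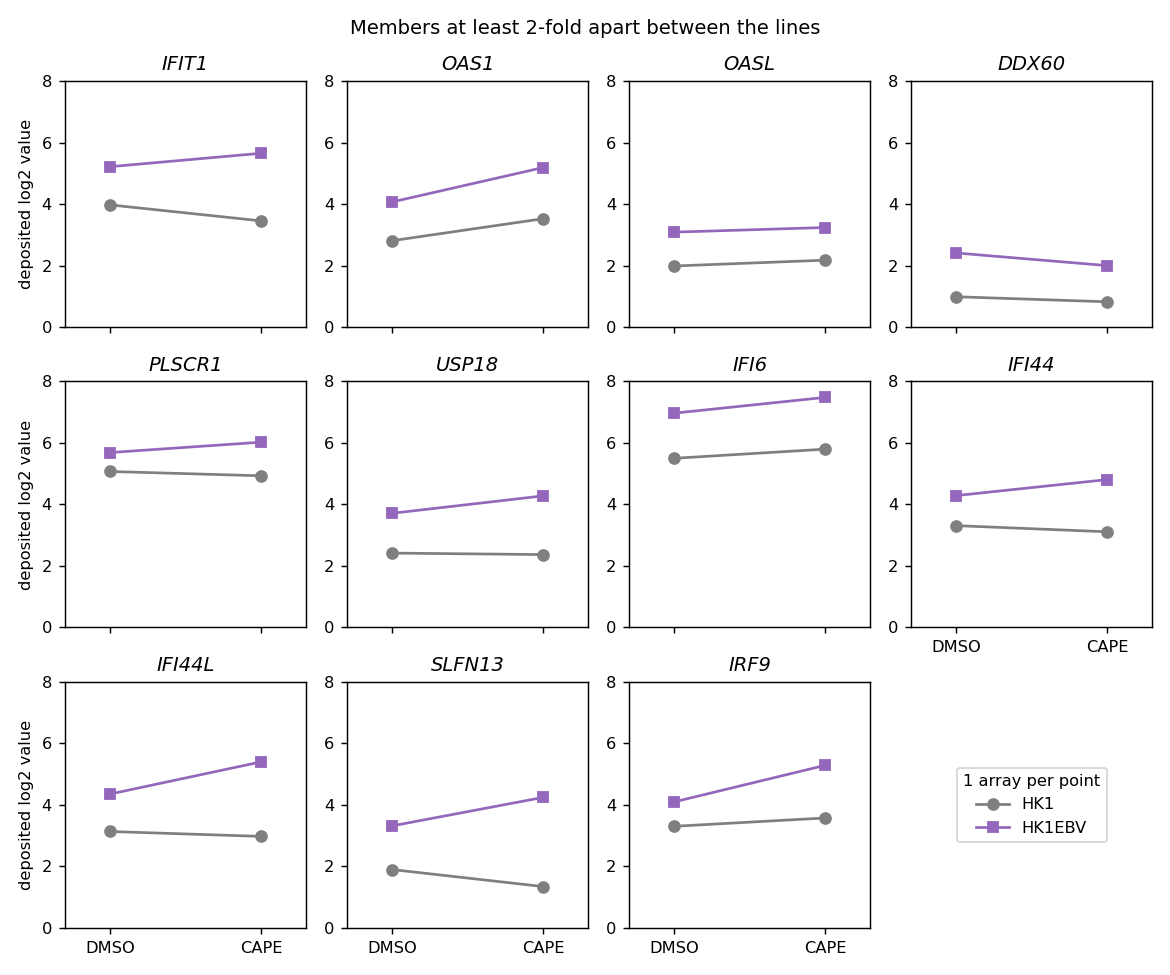
Deposited log2 value (y axis) of the 11 members at least 2-fold higher in HK1EBV in DMSO or CAPE, by treatment (x axis). Grey circles are HK1 and purple squares HK1EBV, 1 array per point with no error bar. In all 11 panels both HK1EBV points lie above both HK1 points, beside 21.4% of all genes. In 9 of the 11 the lines stand further apart in CAPE, most in SLFN13 and IFI44L, beside 17 of the other 35 members. As the 11 were chosen on these same arrays, both counts are partly set by the choice.

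**Figure D5:**
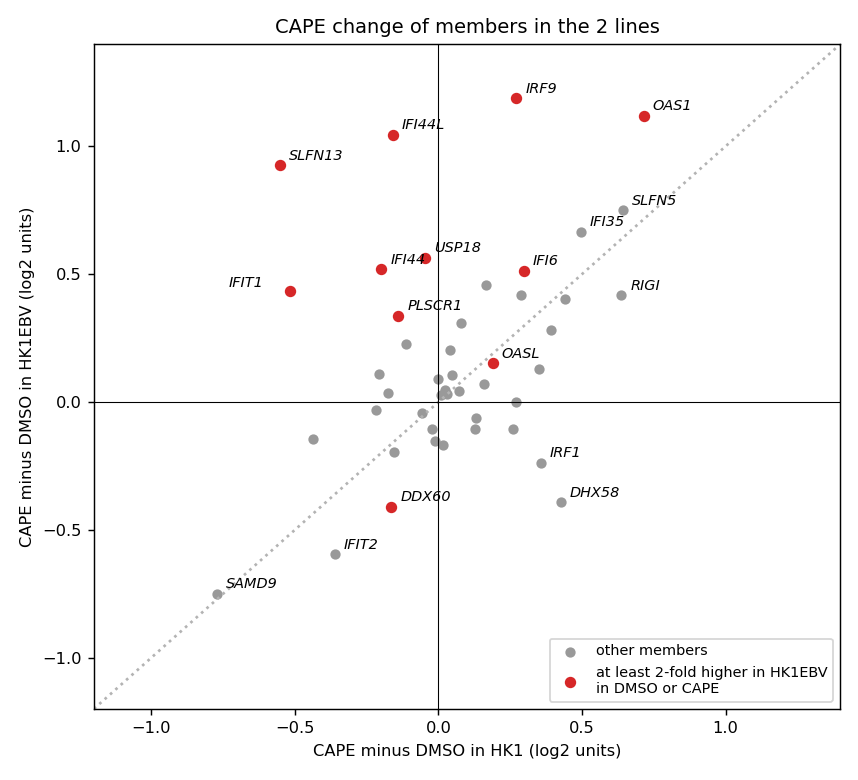
CAPE minus DMSO in HK1 (x axis) against the same in HK1EBV (y axis), in log2 units, 1 point per member, each from 2 arrays per line. Red points are the 11 members at least 2-fold higher in HK1EBV in either treatment, 9 of which lie above the dotted line of equal change, beside 17 of the other 35; as the HK1EBV CAPE values helped to choose the 11, their place above the line is partly set by the choice; SLFN13 has opposite signs, at -0.55 and 0.93.

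The rest of the interferon pathway was read from a list of 80 genes, of which 65 passed the filter. In HK1EBV 1 of these rose and 2 fell (limma with Benjamini-Hochberg adjustment), beside the 1.32% and 1.58% of all genes given above, and the median differences were 0.04 in DMSO and 0.00 in CAPE. The 30 tested genes listed as other interferon-induced genes had medians of 0.11 and 0.12, less than the members had. Of these 30, 1 was at least 2-fold higher in DMSO and 0 in CAPE, beside 0.895% and 0.928% of all genes. At least 2-fold lower was 1 in each, beside 0.974% and 1.13%. IFI30, a lysosomal thiol reductase of antigen processing, rose by 0.83 and 0.92 (limma adjusted p = 0.0426). TLR3, the endosomal sensor of double-stranded RNA, differed by -0.80 and -0.70 and fell (limma adjusted p = 0.0486). NMI, a STAT-interacting protein, differed by -1.25 and -1.10 and fell (limma adjusted p = 0.0311).

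Of 10 interferon genes listed, IFNW1, IFNL1, IFNL2 and IFNL3 passed the filter. IFNB1, the interferon-β gene, was dim at 0.66 and 0.82 in HK1 and at 0.66 and 0.85 in HK1EBV. IFNL3 differed by -0.62 in DMSO and -0.83 in CAPE (limma adjusted p = 0.0547) and its near-identical copy IFNL2 by -0.30 and -0.68, while IFNL1 lay between 1.62 and 1.67 and IFNW1 between 0.90 and 1.14. Of the 4 that passed, 0 were higher in HK1EBV by as much as 0.25 in both treatments. The share of all genes at that size was not counted, so nothing is read from this count. IFNW1 lay close to the filter, and dim probe sets such as that of IFNB1 may miss a difference. Whether the lines differed in interferon production was not tested.

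The receptor chains of type I interferon, IFNAR1 and IFNAR2, differed by -0.10 and 0.07 in DMSO and by -0.29 and 0.16 in CAPE. Those of interferon-γ, IFNGR1 and IFNGR2, differed by -0.26 and -0.22 in DMSO and by -0.15 and -0.50 in CAPE. IFNLR1, the specific chain of the type III receptor, differed by 0.44 and 0.27. IL10RB, the chain that it shares with the interleukin-10 receptor, stood at 2.49 and 3.90 in HK1 and at 1.96 and 1.87 in HK1EBV, so its line difference of -0.53 in DMSO and -2.03 in CAPE went with a CAPE change of 1.42 in HK1 and -0.09 in HK1EBV. The kinases JAK1 and TYK2 differed by -0.00 and -0.02 in DMSO and by 0.18 and -0.09 in CAPE. JAK2 had the value 1.98 on all 4 arrays. TNFSF10, the death ligand TRAIL, which interferon induces, was higher in HK1EBV by 1.88 in DMSO and 0.85 in CAPE (limma adjusted p = 0.0672), with a CAPE change of 1.45 in HK1 and 0.41 in HK1EBV. The sensor gene CGAS differed with CAPE by -1.04 in HK1 and -0.28 in HK1EBV.

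Markers of the cell types a culture could hold were read as well. All 7 epithelial markers with a probe set passed the filter, with medians of 7.61 to 8.10 on the 4 arrays, from KRT8 at 2.26 to 3.05 and KRT19 at 2.43 to 2.91 up to KRT5 at 9.49 to 10.25. KRT5, a keratin of basal epithelium, was higher in HK1EBV by 0.76 in DMSO and 0.49 in CAPE, and the list's median difference was 0.40 and -0.13. Of 7 leukocyte markers 3 passed, with medians of 0.76 to 1.0 on the arrays, and the pan-leukocyte gene PTPRC lay between 0.46 and 0.49. CD68, a lysosomal protein not limited to macrophages, lay between 7.28 and 9.03 and was higher with CAPE by 1.23 in HK1 and 1.14 in HK1EBV. It was also higher in HK1EBV than in HK1, by 0.61 in DMSO and 0.52 in CAPE. The part of these marker differences in the results was not tested. Of 3 plasmacytoid dendritic markers, cells known for making interferon, 2 passed, with medians of 1.03 to 1.09. Fibroblast markers passed at 4 of 6, with medians of 1.72 to 1.95 and COL1A1 at 3.42 to 3.64, and endothelial markers at 3 of 5, with medians of 1.23 to 1.38. The array medians of all probe sets ran from 2.23 to 2.27.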

How the data were processed

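RNA of 2 lines in 2 treatments was measured on 1 single-colour array each. Values were deposited as log2 values made by RMA, per the submitters' processing notes. The log base was taken from RMA's usual scale, and no source used here gives its version, the build or any later shift. They ran from -0.19 to 11.9, so a gene was compared with itself across arrays and not with other genes.

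Names came from the annotation of the platform, which lists 1 symbol for 18612 of the 25800 probe sets, several for 954 and none for 6234. Those with 1 symbol were used, and 18583 matched RefSeq (GRCh38.p14) by Entrez number. The brightest probe set stood for a gene, and genes whose mean reached the 25th percentile (0.997) were tested. The fit was limma 3.58.1 in R 4.3.3 (lmFit, eBayes) on all 4 arrays with line and treatment as terms, two-sided, adjusted p under 0.05 over all 15194 genes, and was tested on simulated data. Differences within 1 treatment or line have no test and are counted at 2-fold. The members and lists were chosen with earlier results of these data known. By the rule for named genes every member is accounted for, with all 4 values where it was 2-fold apart or a regulator. Of the pathway genes, receptor chains, their kinases and those past the threshold or 2-fold apart are named. TNFSF10, IL10RB and CGAS come from that part, and the other interferon genes, IFNB1 among them, were named after their values were seen, as were CD68, KRT5, KRT8, KRT19, COL1A1, PTPRC, SLFN11 and SLFN12. Some genes are not reported here. Alternatives were other filters, scalings, probe set rules, variance priors and no block, besides leaving out genes of zero residual, added after seeing the data.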

Additional observations from a re-analysis of the deposited data

Results flagged for a closer look

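SLFN13 had CAPE changes of opposite sign in the lines, -0.55 in HK1 and 0.93 in HK1EBV, which differ by 1.48 log2 units. It was picked out because both changes were at least 0.5 in size and went opposite ways. Among all 15194 genes tested 14 did so, or 0.0921%. The difference rests on 1 array per group and was not tested.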

How the results depend on the processing

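The counts of calls moved with the setting of limma's fit, which had 1 residual degree of freedom, whereas the 2-fold counts of the members stayed within 1.5 times under every scaling, filter and probe set rule tried. In order, the values that follow are the genes called for line (main 440), the genes called for CAPE (main 1), the members called for line (main 8) and for CAPE (main 0), and the pathway genes called for line (main 3). Without a filter, and likewise without treatment or line as a block, they were 0, 0, 0, 0 and 0. With a filter at the 50th percentile they were 1296, 894, 17, 4 and 13, and the members' medians were 0.52 in DMSO, 0.56 in CAPE and 0.28 for CAPE in HK1EBV. With arrays shifted to one median they were 1526, 1006, 21, 5 and 13, after quantile normalization 1324, 755, 18, 4 and 12, and with a robust prior 959, 379, 17, 3 and 9. Without genes of zero residual, added after seeing the data, they were 1756, 1243, 21, 6 and 14. A prior with a trend gave 7 genes for CAPE. The members' line calls were all higher in HK1EBV under each of these. The mean line difference turned sign for RSAD2 after the shift (0.0010) and for HERC6 after the shift (0.017) and quantile normalization (0.014), all close to 0. The cause was not tested. No array could be left out, as each group has 1. No paired analysis was possible because each group has 1 array and the labels give no replicate numbers.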

Other observations

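Some interferon-related genes outside the main group differed with CAPE in both lines. TRIM14, a mitochondrial adaptor of RNA sensing, differed by -0.90 in HK1 and -0.81 in HK1EBV, LAP3, an interferon-induced aminopeptidase, by -0.88 and -0.44, and TRIM25, a ubiquitin ligase of the RIG-I pathway, by -0.40 and -0.96. TAP1, a peptide transporter of antigen presentation, was higher with CAPE by 0.47 and 0.53 and TRIM38 by 0.45 and 0.61. None (0) of the 5 passed (limma with Benjamini-Hochberg adjustment), and the values rest on 1 array per group. Against HK1, HK1EBV was higher in PIAS1, an inhibitor of STAT signalling, by 0.65 in DMSO and 0.77 in CAPE, and differed in SOCS3, a feedback inhibitor of cytokine signalling, by -0.39 and -0.85. These genes were named after their values were seen.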
